A study of Mus musculus with 6 samples.

Results

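The 6 tumours of the study were divided, whichever treatment the animal had received, into 3 with a high and 3 with a low share of messenger RNA for Col3a1, the chain of type III collagen. Each tumour's Col3a1 count was divided by its total over a panel of 750 tumour-related genes, and the tumours were ranked by this share. The 3 highest, TTFM 1, TTFM 2 and saline 2, had been proposed as matrix-rich tumours, and the 3 lowest, TTFM 3, saline 1 and saline 3, as matrix-poor ones. Between the sets, 627 of the 750 genes were compared, those whose count averaged 10 or more over the tumours.

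All tumours grew in female mice from 300000 cells of 4T1, a mouse mammary carcinoma line, placed in the left mammary fat pad. The title of every sample starts with CLDX. From 2 weeks after implantation, 3 tumours were exposed to extracts of a Thai traditional formulary medicine (TTFM), and 3 carry the label saline. Unless CLDX names one, the sources used here give no mouse strain. They also give no age, and neither what the extracts contained nor how much was given or for how long. No label says that each tumour came from its own mouse, so the p-values reflect only how far these samples spread, and some of that spread may be technical. RNA came from whole tumour tissue, which holds carcinoma cells with host fibroblasts, vessels and leukocytes. Fewer cells of a type and less RNA per cell cannot be told apart in such samples.

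The extracellular matrix of a carcinoma is laid down largely by fibroblasts, which secrete the fibrillar collagens of types I, III, V and XI together with glycoproteins such as tenascin-C and fibronectin. Epithelial and carcinoma cells make another matrix, the basement membrane, whose laminin-332 is bound by integrins that carry the alpha-3, alpha-6 and beta-4 chains. Proteases such as Mmp9 and the urokinase Plau cut matrix proteins, and dividing cells transcribe the replication and mitosis genes in S, G2 and M phase.

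The Col3a1 share was 0.904% in TTFM 1 (95% Wilson interval 0.876 to 0.933), 1.29% in TTFM 2 (1.26 to 1.32) and 1.78% in saline 2 (1.74 to 1.82). In the lower set it was 0.661% in TTFM 3 (0.634 to 0.690), 0.269% in saline 1 (0.254 to 0.286) and 0.0861% in saline 3 (0.0777 to 0.0954). These intervals cover counting error only. The boundary ran between TTFM 1 and TTFM 3, whose shares differed 1.37-fold, which is a smaller step than the 2.46-fold one between TTFM 3 and saline 1 or the 3.13-fold one between saline 1 and saline 3. These shares chose the sets and are a description. Since all genes come from the same 6 samples, every comparison between the sets is given without a test.

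Total counts were 426190, 449460 and 403124 in TTFM 1, TTFM 2 and saline 2, against 333515, 400274 and 422841 in TTFM 3, saline 1 and saline 3. Values below are counts scaled by the trimmed mean of M values (TMM) to a common library size, always in this order of tumours, and a log2 ratio is that of the mean over the 3 tumours of each set. Col3a1 itself averaged 5916 ± 2191 in the upper set and 1266 ± 1086 in the lower set (SD, n = 3 each).

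The names matrix-rich and matrix-poor fitted the measured matrix genes only in part. The same 3 tumours came out on top when ranked by Col1a1 or by Tnc. By the summed share of the fibrillar collagens TTFM 3 ranked above TTFM 1, at 4.48% against 4.26%, and by the mean log2 level of the non-collagen matrix glycoproteins only 1 of the 3 stayed among the highest 3. Fibronectin was lower in the upper set, as given below. The sets are therefore called Col3a1-high and Col3a1-low here.

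Across the panel, 122 of the 627 genes (19.5%) had all 3 values of the Col3a1-high tumours above all 3 of the Col3a1-low tumours, and 128 (20.4%) had them all below. With a ratio of at least 2-fold as well, 32 genes (5.1%) were higher and 39 (6.22%) lower in Col3a1-high tumours, so that 45.1% of these 71 genes were higher. Scaled by column totals these counts were 21 and 59 (26.3% higher), and by DESeq2 size factors 42 and 34 (55.3% higher). Column totals moved the median of all genes by -0.24 on the log2 scale, from a value of -0.06 with TMM. Leaving out TTFM 3, which sits next to the boundary, gave counts of 54 and 56. These percentages stand beside the counts that follow, and nothing is read from the comparison, since the sets were chosen on the same samples.

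By the labels' groups, TTFM against saline tumours gave 0 of 627 genes (0%) at an adjusted p under 0.05 in edgeR's quasi-likelihood test with Benjamini-Hochberg adjustment, the smallest adjusted p being 0.525, and 38 genes had an unadjusted p under 0.05. DESeq2 called 1 gene at an adjusted p of 0.0102, Il1b, which encodes the cytokine interleukin-1 beta and was lower in TTFM tumours, and limma called 0, with 33 genes at an unadjusted p under 0.05. Without saline 2 the edgeR test called 14 genes, Cd14, Irak2, Gadd45b, Fos, Pim1 and Socs3 among them. The Col3a1-high set holds 2 TTFM tumours and 1 saline tumour and the Col3a1-low set 1 and 2, so each contrast is also given inside the treatments, as TTFM 1 and 2 over TTFM 3 and as saline 2 over saline 1 and 3. Each of these rests on a single tumour on one side. The 71 genes at least 2-fold apart all had the same direction in both treatments, as the lack of overlap requires, and 17 of the higher genes (2.71% of the 627) and 21 of the lower ones (3.35%) were at least 2-fold apart in both.

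Collagen genes, which share the choice of the sets, did not all follow Col3a1: some stood at 2 separate levels, others ran as a gradient over the tumours or the opposite way. Of the 10 fibrillar collagen genes, all of which passed the count minimum, 4 were higher without overlap (Col3a1, Col1a1, Col5a2 and Col11a1), 1 was lower and 5 overlapped, with a median log2 ratio of 1.10 beside -0.06 over all genes. Col5a2, a chain of type V collagen that regulates fibril diameter, had 1737, 2009 and 2324 in Col3a1-high tumours, against 584, 356 and 238 in Col3a1-low tumours. Its groups stood apart in both treatments, with log2 ratios of 1.68 within TTFM and 2.97 within saline. Col1a2, the second chain of type I collagen, had 2809, 4266 and 8299 against 5803, 1325 and 490.3, and TTFM 3 lay above TTFM 1 and TTFM 2. The median over the 10 genes was -0.09 within TTFM, where 4 had a positive ratio, and 2.65 within saline, where 8 did. The median near 0 within TTFM reflects mixed directions and does not measure how far apart the tumours lay. The difference between the treatments was not tested.

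**Figure D1:**
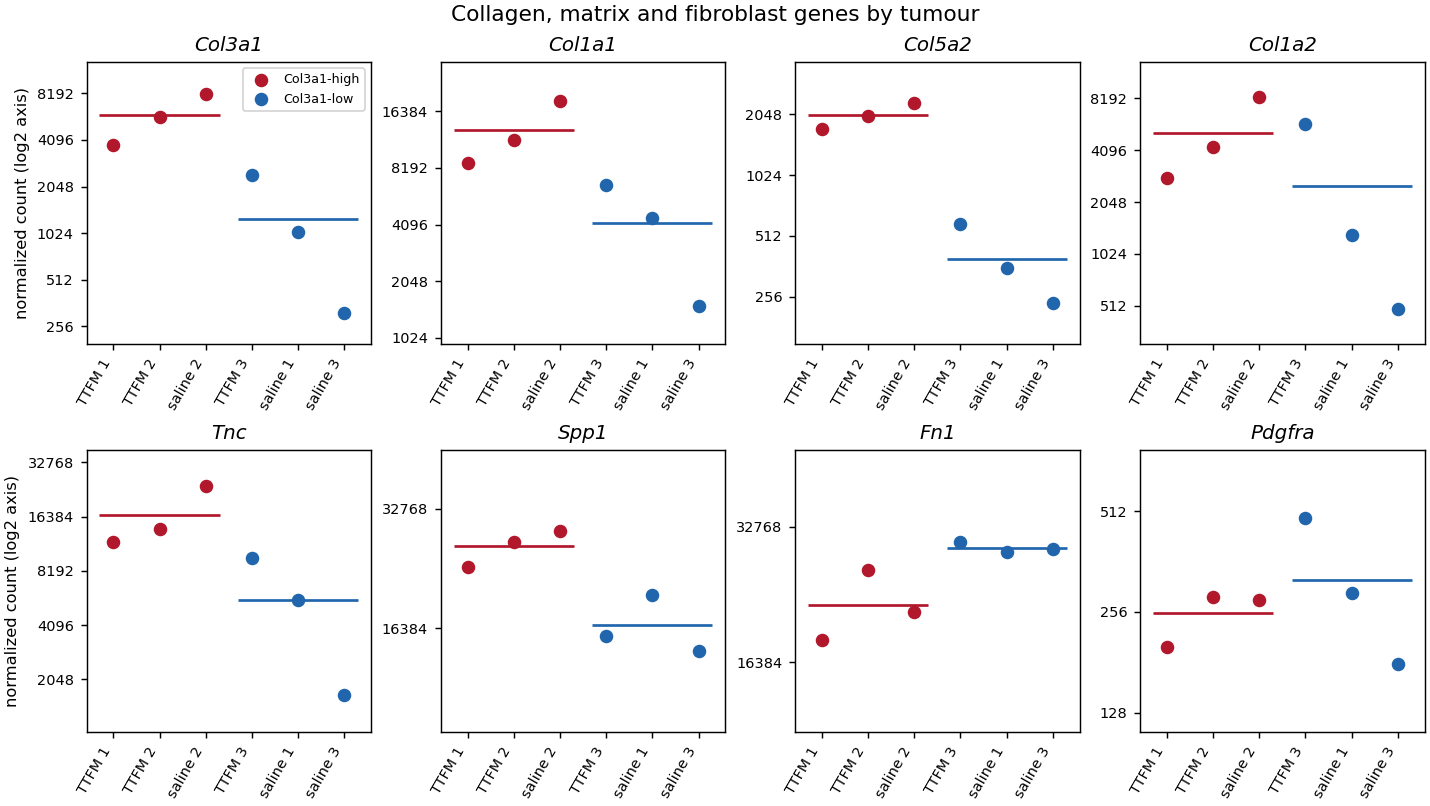
TMM-normalized counts (log2 axes) of 8 matrix and fibroblast genes in each tumour. Red points are the Col3a1-high and blue points the Col3a1-low tumours, and horizontal lines are the means of 3. Col3a1, Col1a1, Col5a2, Tnc and Spp1 do not overlap between the sets, TTFM 3 lies inside the upper range for Col1a2, and Fn1 is lower in all Col3a1-high tumours.

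Other collagens ran the opposite way. Col4a5, a basement membrane chain of type IV collagen, had 30.4, 17.03 and 21.6 in Col3a1-high tumours, against 142, 147 and 96.2 in Col3a1-low tumours, a log2 ratio of -2.48. Col4a6, the chain that assembles with it, had 6.87, 6.01 and 9.10 against 25.5, 25.04 and 24.04, and Col11a2, the 1 fibrillar collagen gene that was lower, had 7.86, 8.01 and 6.82 against 28.9, 31.8 and 51.5. For all 3 genes the lowest Col3a1-low tumour lay above the highest Col3a1-high one, at counts that are low for Col4a6 and Col11a2. Of the 5 network and other collagens on the panel, 3 passed the count minimum, and 2 of them were lower without overlap.

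Among the 9 tested non-collagen matrix glycoproteins, of 11 on the panel, 4 were higher and 2 lower without overlap, with a median log2 ratio of 0.67 that turned to -0.11 without the count minimum and was -0.20 within TTFM and 0.75 within saline. Tnc, tenascin-C, which is deposited in tumour and wound stroma, had 11861, 14005 and 24093 in Col3a1-high tumours, against 9714, 5634 and 1675 in Col3a1-low tumours. Saline 2 was highest and saline 3 lowest, and the log2 ratio was 0.41 within TTFM and 2.72 within saline. Tnn, tenascin-N, had 84.4, 158 and 107 against 55.5, 47.2 and 35.2, with all 3 Col3a1-high values above the others. Tnr, tenascin-R, ran the other way at a mean count under 50. It was lower without overlap at a log2 ratio of -2.49, and at least 2-fold lower in both treatments. Spp1, the secreted glycoprotein osteopontin, had 23426, 26999.5 and 28894 against 15704, 19897 and 14363, close to the same ratio within both treatments (0.68 and 0.75). Fn1, fibronectin, was lower in every Col3a1-high tumour, with 18362, 26308 and 21184 against 30348, 28711 and 29185. Thbs1, the antiangiogenic glycoprotein thrombospondin-1, had 1051, 1049.8 and 2067 against 1705, 2596 and 2892, with saline 2 above TTFM 3.

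Most fibroblast markers overlapped between the sets. Of 9 tested fibroblast and mesenchymal markers, of 10 on the panel, 1 was higher without overlap and 8 overlapped, with a median log2 ratio of 0.51 that was -0.19 within TTFM and 1.31 within saline. Their summed level was 1306, 1638 and 1784 in Col3a1-high tumours, against 1626, 794 and 741 in Col3a1-low tumours, so TTFM 3 lay inside the upper range. Pdgfra, the platelet-derived growth factor receptor of fibroblasts, had 201, 284 and 279 against 488, 292 and 179, its highest value being in TTFM 3. Gas1, a growth arrest protein of the cell surface, and Sfrp2, a secreted WNT modulator of fibroblasts, both overlapped, TTFM 3 lying above TTFM 1, at log2 ratios of 1.65 and 1.22. Ngfr, the p75 neurotrophin receptor, was the marker without overlap, with 409, 362 and 266 against 189, 132 and 82.4.

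Some laminin-332 and integrin genes of the basement membrane contact separated the sets within both treatments. Lama3 and Lamb3, chains of laminin-332, and the 3 receptor chains measured for it (Itga3, Itga6 and Itgb4), a group put together after their values were seen, were all higher without overlap, with log2 ratios of 0.57 to 2.32 and a median of 0.74. Lamb3, the beta chain, had 836, 619 and 597 in Col3a1-high tumours, against 105, 149 and 157 in Col3a1-low tumours. Lama3, the alpha chain, had 673, 600.0 and 736 against 198, 303 and 246. For Lamb3 every Col3a1-high tumour exceeded every Col3a1-low one more than 3-fold, and TTFM 3 had the lowest level of both chains. Lama5, the alpha chain of other basement membrane laminins, was lower, with 1409, 1443 and 1447 against 2030.3, 2253 and 2331.

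Of the 11 integrin genes, 5 were higher and 2 lower without overlap, with a median log2 ratio of 0.43. Itga2, the alpha chain of the collagen receptor alpha-2 beta-1, had 472, 539 and 540.2 in Col3a1-high tumours, against 179.8, 209.9 and 151 in Col3a1-low tumours, and its log2 ratios within TTFM and within saline were 1.49 and 1.58. Itga3, the alpha chain of a laminin-332 receptor, had 5582, 5350.0 and 5865 against 3197, 2902 and 4073. Itgb4, the hemidesmosome chain, had 717, 914 and 632 against 461, 449 and 443, with the 3 Col3a1-low tumours within a narrow range. Itgb3, the beta chain of the vitronectin receptor, had a log2 ratio of 0.86. The lower ones, Itgb7 and Itgb8, are both at mean counts under 50, with log2 ratios of -0.82 and -1.94.

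Matrix proteases included the gene with the largest ratio outside the collagens. Mmp9, gelatinase B, which cleaves denatured collagen and type IV collagen, had 5082, 4689 and 5509.8 in Col3a1-high tumours, against 996, 1164 and 468 in Col3a1-low tumours, and averaged 5094 ± 411 against 876 ± 363 (SD, n = 3 each). The 3 Col3a1-high values were within a narrow range, and the log2 ratio was 2.29 within TTFM and 2.76 within saline. Plau, urokinase, which activates plasminogen, had 1291, 1299 and 1538 against 506, 644 and 346. Mmp3, stromelysin-1, overlapped, with 2636, 3498 and 4492 against 3372, 2475 and 1009.8, as did Plat, the tissue plasminogen activator. Mmp9 is also made by neutrophils, and the 3 neutrophil markers of the panel summed to 161, 119 and 248 in Col3a1-high tumours, against 132, 360 and 627 in Col3a1-low tumours. The table holds no 0 for any gene.

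**Figure D2:**
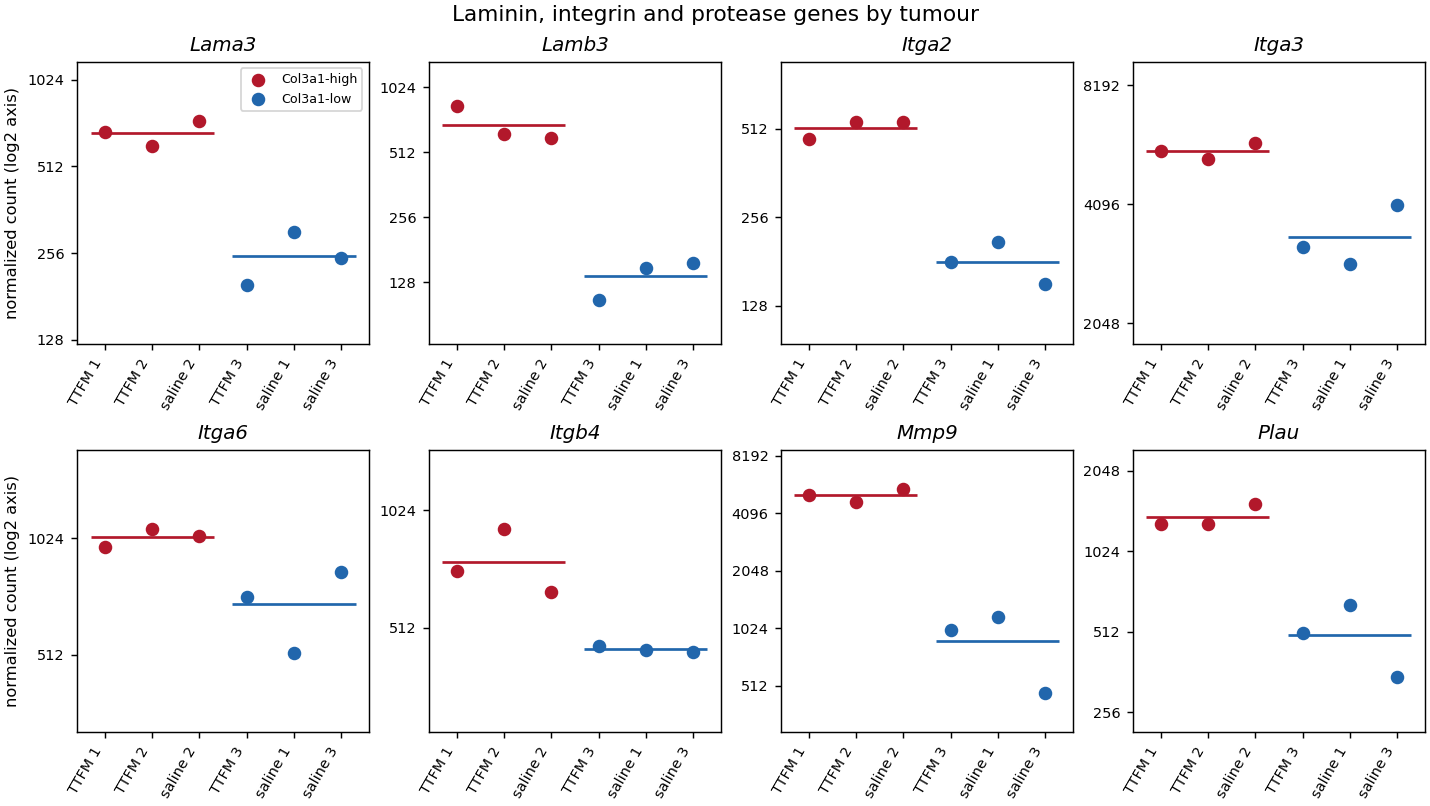
TMM-normalized counts (log2 axes) of 2 laminin-332 chains, 4 integrin chains and 2 proteases in each tumour, with the mean of 3 as a line. In all 8 panels the red Col3a1-high points lie above the blue Col3a1-low points, and TTFM 3 is the lowest of all tumours for the laminin chains.

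Most genes of replication and mitosis were higher in Col3a1-high tumours, in both treatments. Of 35 tested genes of replication and of the S, G2 and M phases, 22 were higher and 1 lower without overlap and 30 had a positive log2 ratio, with a median of 0.81. Their mean log2 level, centred over the tumours, was 0.40, 0.32 and 0.25 in TTFM 1, TTFM 2 and saline 2, against -0.39, -0.27 and -0.31 in TTFM 3, saline 1 and saline 3. In 27 of the 35 the ratio was positive within both treatments, the medians being 0.69 within TTFM and 0.57 within saline.

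Top2a, the topoisomerase that untangles replicated chromosomes, had 1047, 922 and 615 in Col3a1-high tumours, against 241, 273 and 154 in Col3a1-low tumours, a log2 ratio of 1.95. Ttk, a kinase of the spindle checkpoint, had 107, 114 and 124 against 35.5, 47.2 and 42.9. Ccna2, the cyclin of S and G2 phase, had 1523, 1498 and 1613 against 608, 841 and 465. For all 3 genes no tumour of one set reached the range of the other. Mcm5, a subunit of the replicative helicase, had 81.5, 83.1 and 81.9 against 38.9, 28.9 and 34.3, so that its 3 Col3a1-high values differed little. The exception was Ccnb1, cyclin B1, a low count gene with 10.8, 12.02 and 10.2 against 16.7, 18.3 and 16.3. Hist2h3b, an S phase histone H3 gene, had a log2 ratio of 1.45, but histone H3 genes have near-identical copies and its level is uncertain.

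**Figure D3:**
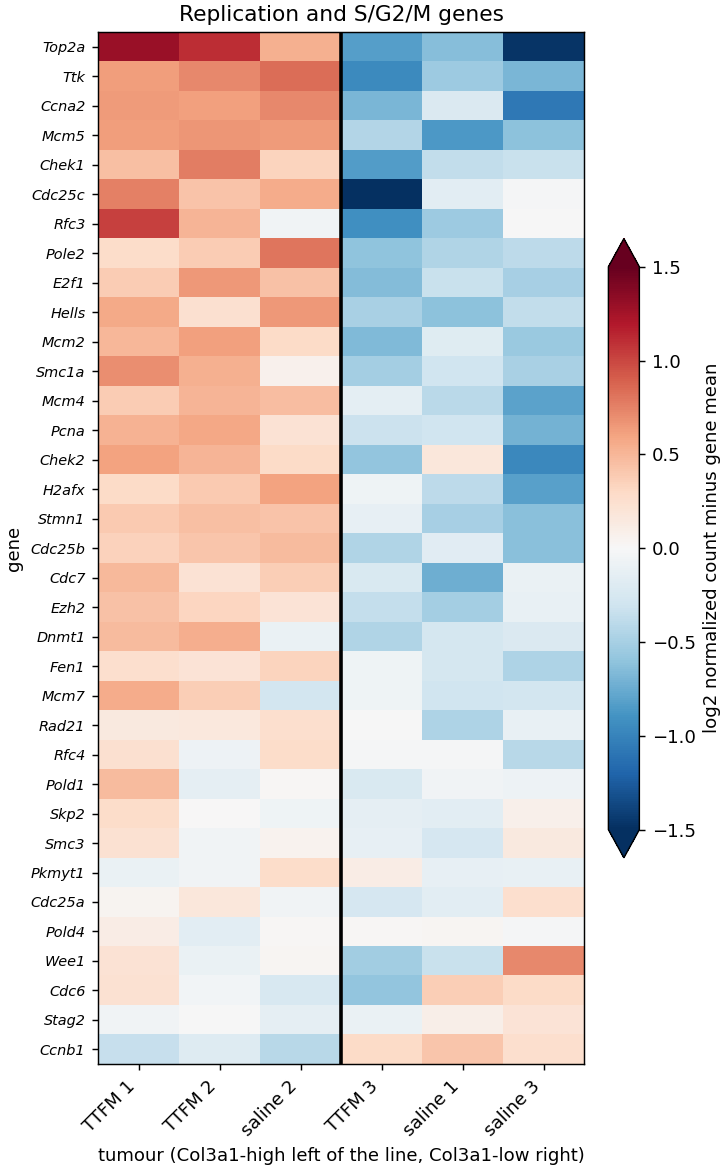
Log2 normalized count of the 35 replication and S/G2/M genes (rows, ordered by ratio) in each tumour (columns), each minus the gene's mean over the 6 tumours. Red is above and blue below the mean, and most rows are red in the 3 Col3a1-high columns and blue in the 3 Col3a1-low columns, with Ccnb1 the opposite.

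Among DNA repair genes there were members on both sides, and the list as a whole had a median near 0. Brca1, which acts in homologous recombination, had 95.2, 105 and 109 in Col3a1-high tumours, against 38.9, 35.6 and 55.8 in Col3a1-low tumours. Of 35 tested repair genes 12 were higher and 6 lower without overlap, with a median of 0.02 that turned to -0.21 with column totals. Among 18 tested G1 cyclins and CDK inhibitors, 6 were higher and 3 lower, with a median of 0.12 that turned to -0.12 with column totals. Ccnd1, cyclin D1, had 4731, 5507 and 4125 against 2412, 3245 and 2183, Ccne2, cyclin E2, had a log2 ratio of 0.91, and Trp53, the p53 tumour suppressor, was lower at -0.67.

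The 250 bases upstream of the start of Top2a and Ttk are shown since the CCAAT box (letters CCAAT, in capitals on the printed strand, or ATTGG where the box is on the other strand) occurs in them more than once. The upstream sequences of Kitl, one of the genes with the most negative ratio, and Col3a1, which chose the sets, are set beside them and hold no CCAAT box. They are from RefSeq on GRCm38.p6, 5′ to 3′ along each gene's strand. The region of Top2a is chr11:99024190-99024439 (minus strand), that of Ttk chr9:83834439-83834688 (plus), that of Kitl chr10:100015571-100015820 (plus) and that of Col3a1 chr1:45311288-45311537 (plus).
Top2a: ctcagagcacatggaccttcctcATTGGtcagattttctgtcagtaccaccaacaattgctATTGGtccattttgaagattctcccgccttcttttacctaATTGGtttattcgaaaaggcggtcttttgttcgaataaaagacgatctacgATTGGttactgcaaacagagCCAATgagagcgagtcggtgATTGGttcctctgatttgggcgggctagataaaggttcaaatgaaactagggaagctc
Ttk: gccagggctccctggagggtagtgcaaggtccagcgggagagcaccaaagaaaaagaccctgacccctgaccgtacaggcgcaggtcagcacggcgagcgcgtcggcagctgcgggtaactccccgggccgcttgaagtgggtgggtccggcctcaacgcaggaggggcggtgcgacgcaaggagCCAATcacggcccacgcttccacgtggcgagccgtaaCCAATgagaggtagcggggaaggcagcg
Kitl: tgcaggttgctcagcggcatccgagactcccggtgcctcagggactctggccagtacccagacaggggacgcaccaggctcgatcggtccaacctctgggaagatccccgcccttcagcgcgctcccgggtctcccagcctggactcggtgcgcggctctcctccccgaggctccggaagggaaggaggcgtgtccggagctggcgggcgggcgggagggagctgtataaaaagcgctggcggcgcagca
Col3a1: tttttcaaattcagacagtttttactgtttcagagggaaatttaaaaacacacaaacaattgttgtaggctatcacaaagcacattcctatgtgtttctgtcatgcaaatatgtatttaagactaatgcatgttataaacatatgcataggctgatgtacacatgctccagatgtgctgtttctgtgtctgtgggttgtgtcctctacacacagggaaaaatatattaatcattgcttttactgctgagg

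Top2a holds 6 CCAAT boxes in these bases, 1 on the printed strand and 5 on the other, and Ttk holds 2. On either strand, the box was found in 16 of the 26 replication genes with a promoter entry (61.5%), in 191 of 470 panel genes with one (40.6%) and in 10133 of 27025 genes of the whole promoter table (37.5%). Among genes at least 2-fold apart without overlap it was found in 10 of 20 higher genes (50%) and 7 of 32 lower genes (21.9%). A GC box (GGGCGG) was found in 19 of the 26 replication genes (73.1%), against 68.9% of the panel genes, and the AP-1 motif TGANTCA in 0 of the 26, against 8.3% of the panel genes. These motifs were searched on both strands, and none of them can be part of another.

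Ghr, Kitl and Erbb3, a hormone receptor, a growth factor and a growth factor receptor, were among the genes that were lower in Col3a1-high tumours in both treatments. Ghr, the growth hormone receptor, had 81.5, 67.1 and 38.7 in Col3a1-high tumours, against 546, 506 and 179 in Col3a1-low tumours, a log2 ratio of -2.72. Kitl, stem cell factor, the ligand of the receptor Kit, had 200.3, 177 and 108 against 945, 951 and 768, a log2 ratio of -2.46. Erbb3, a receptor of neuregulin, had 194, 265 and 210.4 against 619, 465 and 481. For each of these 3 genes, all Col3a1-low tumours lay well above all Col3a1-high ones, TTFM 3 included, and the ratios within TTFM were -2.88, -2.32 and -1.43. Its partner Erbb2, named after its values were seen, had 451, 488 and 355 against 760.4, 811 and 584. Il6ra, the interleukin-6 receptor, had 128, 136 and 146 against 404, 341 and 258, and Igf1r, the type 1 insulin-like growth factor receptor, and Fgfr2, a fibroblast growth factor receptor, had smaller log2 ratios of -0.72 and -0.70.

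Further regulators stood lower in all 3 Col3a1-high tumours. Notch3, a receptor of the Notch pathway, had 29.5, 22.04 and 26.2 in Col3a1-high tumours, against 92.1, 70.3 and 69.6 in Col3a1-low tumours, and Jag2, a ligand of the pathway, had 47.1, 47.1 and 47.8 against 91.02, 113 and 80.7. Jag1, another ligand, ran the other way with 484, 466 and 643 against 341, 246 and 264. Of 13 tested Notch genes 1 was higher and 4 lower without overlap, with a median of -0.49. Bcl2, the inhibitor of apoptosis, had 103, 156 and 108 against 321, 312 and 262, and Fas, a death receptor, had 89.4, 45.1 and 56.9 against 131, 93.4 and 247 with saline 1 barely above TTFM 1. The class II histone deacetylase Hdac5 had 234, 264 and 334 against 713, 609 and 619.9, and Hdac11, the class IV enzyme, had a log2 ratio of -1.27. Klf4, a transcription factor of epithelial differentiation, had 138, 98.2 and 83.02 against 235, 202 and 498, with saline 3 highest. Of 37 tested chromatin modifiers 5 were higher and 10 lower without overlap.

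**Figure D4:**
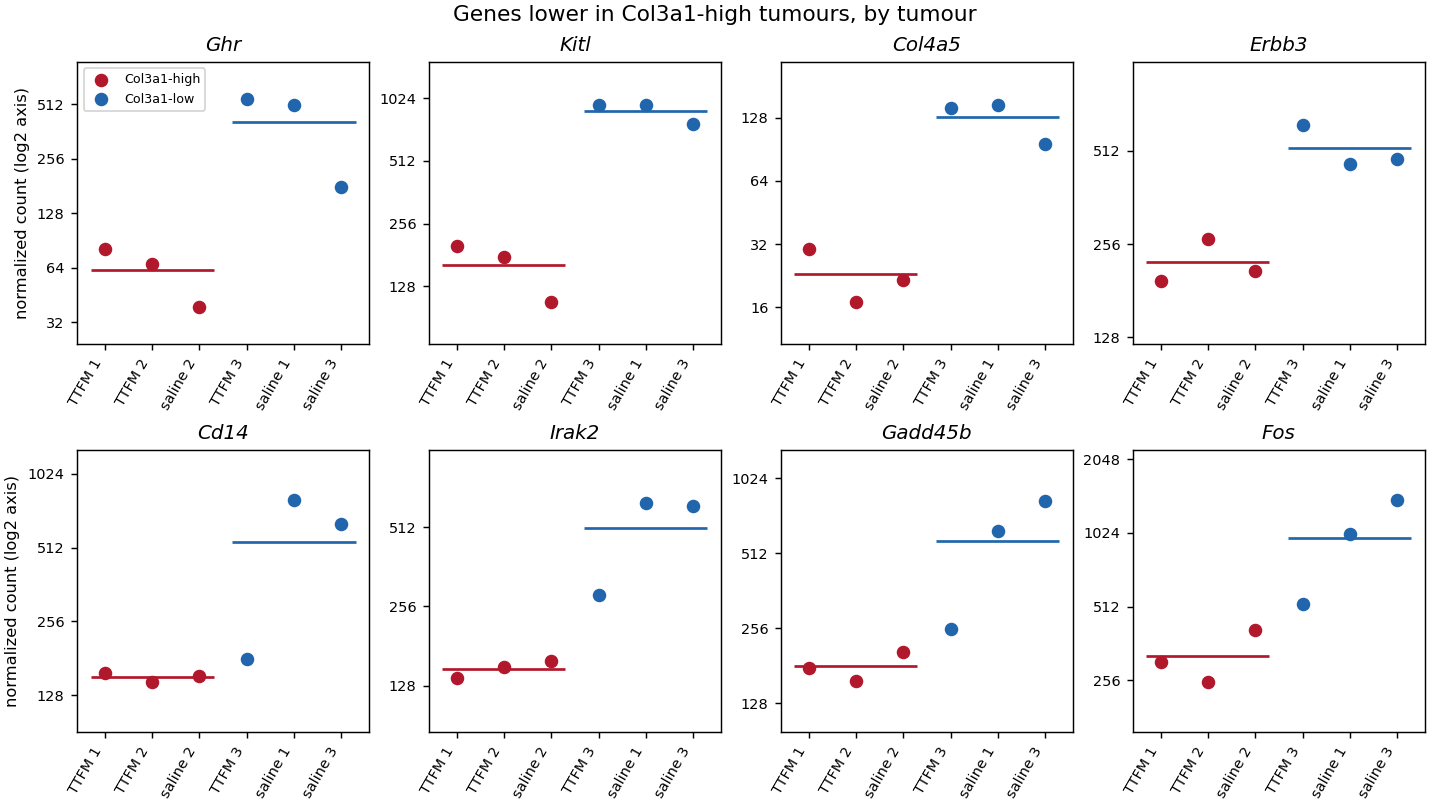
TMM-normalized counts (log2 axes) of 8 genes that were lower in Col3a1-high tumours, with the mean of 3 as a line. For Ghr, Kitl, Col4a5 and Erbb3 (top) TTFM 3 lies with saline 1 and saline 3, and for Cd14, Irak2, Gadd45b and Fos (bottom) it lies between them and the red Col3a1-high points or next to the red points.

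In 7 further genes that were lower in Col3a1-high tumours, taken here one by one, saline 1 and saline 3 were highest and TTFM 3 came nearest to the Col3a1-high tumours. Cd14, the lipopolysaccharide co-receptor of myeloid cells, had 157, 145 and 154 in Col3a1-high tumours, against 179.8, 803 and 641 in Col3a1-low tumours. Irak2, a kinase of interleukin-1 and Toll-like receptor signalling, had 136, 150.3 and 158 against 283, 629.8 and 617. Gadd45b, a stress-induced regulator, had 177, 157 and 206 against 254, 626 and 833. TTFM 3 stood well below saline 1 and saline 3 in all 3 genes and, for Cd14, only slightly above the Col3a1-high tumours. Fos, an immediate-early factor, had 303, 252 and 409 against 524, 1018 and 1399.6, and Pim1, a kinase induced by STAT factors, had 128, 116 and 134 against 191, 446 and 459. Cxcl5, a chemokine that draws neutrophils, had 16.7, 18.03 and 30.7 against 35.5, 75.1 and 113, and Socs3, an inhibitor of cytokine signalling, had 155, 140.2 and 160.3 against 168, 477 and 328.

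Several of these genes were also lower in TTFM than in saline tumours before adjustment. Of the 39 lower genes, 8 had an unadjusted p under 0.05 in that test (Cd14, Irak2, Gadd45b, Fos, Pim1, Cxcl5, Socs3 and the cytokine gene Tnf, with a negative log2 ratio of TTFM over saline in each), against 0 of the 32 higher genes and 38 of all 627 (6.06%). The Col3a1-low set holds 2 of the 3 saline tumours, so the 2 comparisons are not independent of each other, for higher and lower genes alike. The part of this make-up in the 8 genes was not tested. Their smallest adjusted p in edgeR's quasi-likelihood test was 0.582. For Cd14, the log2 ratio of TTFM over saline was -0.02 within the Col3a1-high set and -2.01 within the Col3a1-low set, where it rests on TTFM 3 alone. Most members of the lists these genes belong to overlapped between the sets, though some lists leaned to 1 side. Of the 18 tested inflammatory cytokines and chemokines 1 was higher and 4 were lower without overlap, and 9 had a negative ratio. Their median log2 ratio was -0.32, and it was 0.05 within TTFM and -0.33 within saline. All 10 stress and heat shock genes had a negative ratio, but only 1, Gadd45b, was lower without overlap. Their median was -0.61, and it was -0.04 within TTFM, where 4 had a positive ratio, and -0.96 within saline. All 6 tested immediate-early genes, Fos among them, also had a negative ratio, with 1 lower without overlap. Cxcl2, another neutrophil-attracting chemokine, ran in opposite directions, with 47.1, 26.04 and 23.9 in Col3a1-high tumours, against 4.44, 118 and 191 in Col3a1-low tumours. Il1b, named after its values were seen, had 803, 706 and 1257 against 459.6, 2289 and 2603.

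Among markers of other cell types, the summed level of the epithelial markers was higher in every Col3a1-high tumour. That of the monocyte and macrophage markers was lower, a separation that rested on Cd14. The other sums overlapped, while most lists held members on both sides. Of 6 monocyte and macrophage markers 0 were higher and 2 lower without overlap, and their summed level was 1084, 1007 and 1213 in Col3a1-high tumours, against 1568, 1740 and 1368 in Col3a1-low tumours. Cd14 made up a large part of this sum in saline 1 and saline 3, and without Cd14 the sums overlap. Csf1r, the receptor of macrophage colony-stimulating factor, had 459.5, 458 and 503 against 532, 379 and 211, and overlapped. Of 3 neutrophil markers all overlapped, Csf3r, the granulocyte colony-stimulating factor receptor, with 108, 62.1 and 107 against 82.1, 254 and 438. Of 8 tested lymphocyte and NK markers 2 were higher and 3 lower, and their summed level was 472, 353 and 475 against 693, 428 and 403. The 13 endothelial and vessel genes summed to 2684, 2463 and 2788 against 2571, 2271 and 2768, and of these 2 were higher and 1 lower without overlap, 10 having a negative ratio, with a median of -0.35. Vegfa, the vascular endothelial growth factor, had 516, 449.8 and 680.1 against 336, 166 and 320.3, while Angpt2, the vessel-destabilizing angiopoietin-2, and Vegfc, a lymphatic growth factor, overlapped at log2 ratios of -0.58 and -0.53. The 11 epithelial and tumour cell markers, Lamb3 and Itgb4 among them, summed to 12489, 12266 and 10858 against 8258, 9637 and 9904, but 4 of them were higher and 3 lower without overlap, Kitl and Erbb3 among the lower ones. Their median log2 ratio was 0.34, and it was 0.51 within TTFM and -0.01 within saline. Their mean log2 level, centred over the tumours, overlapped, at -0.09 in saline 2 against -0.02 in saline 1 and 0.01 in saline 3. The part of these markers in the gene differences was not tested.

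TGF-beta is known for inducing fibrillar collagen genes in fibroblasts, and its pathway had members on both sides. Of 25 tested members of the TGF-beta, BMP and activin pathway, of 32 on the panel, 5 were higher and 6 lower without overlap and 17 had a negative ratio, with a median log2 ratio of -0.17. Tgfb1, the main ligand, had 1146, 1321 and 1526 in Col3a1-high tumours, against 979, 939.9 and 638 in Col3a1-low tumours, and Tgfb2, another ligand, had 80.5, 94.2 and 147 against 51.1, 64.5 and 47.2. Inhba, the chain of activin A, had 766, 959 and 1299 against 652, 404 and 476. These 3 ligand genes were higher without overlap, with saline 2 highest. The BMP ligands Bmp2 and Bmp4 were lower instead, with 29.5, 26.04 and 23.9 against 69.9, 63.6 and 47.2 for Bmp2 and 17.7, 7.01 and 15.9 against 27.8, 32.7 and 66.1 for Bmp4, both at mean counts under 50. Fst, follistatin, which binds and blocks activin, had 51.1, 63.1 and 118 against 32.2, 9.63 and 11.2, at a mean count under 50. Smad2, a signal transducer of TGF-beta and activin, had 161, 144 and 108 against 76.6, 78.00 and 97.9.

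Single WNT and PDGF ligands were higher, while the share of higher genes in their lists was near or below the 19.5% over all 627 genes. Of 30 tested WNT genes 6 were higher (20%) and 4 lower (13.3%, against 20.4% of all genes) without overlap, with a median of 0.14 that turned to -0.11 with column totals. Wnt5a, a ligand of the noncanonical branch, had 513, 606 and 807 in Col3a1-high tumours, against 399.6, 287 and 151 in Col3a1-low tumours. Wnt11, a related ligand, had 74.6, 67.1 and 111 against 61.1, 44.3 and 30.9, and Wnt7b, an epithelial ligand, had 314, 323 and 210.4 against 107, 199 and 175. Pdgfb, the platelet-derived growth factor that acts on Pdgfrb, had 1132, 994 and 1528 against 798, 648 and 709. In the growth factor list, which holds Kitl, Ngfr and Pdgfb, 4 of 27 tested genes, of 43 on the panel, were higher (14.8%) and 6 lower (22.2%) without overlap, with a median of -0.15.

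**Figure D5:**
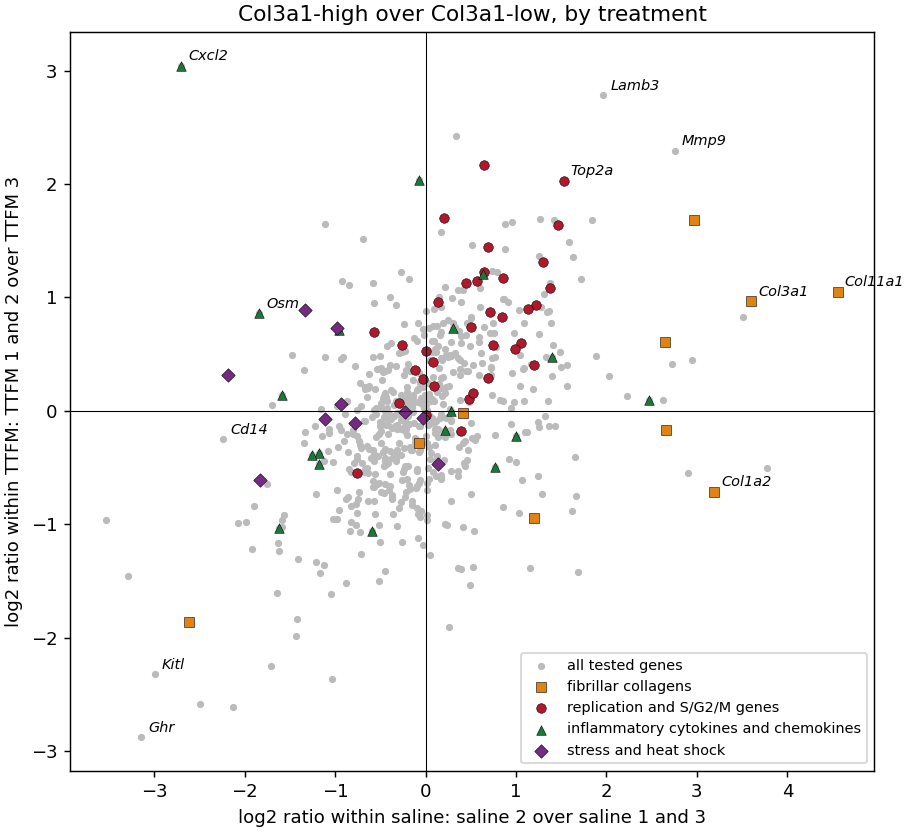
Log2 ratio of Col3a1-high over Col3a1-low tumours for each of the 627 genes (points), within saline (horizontal axis, saline 2 over saline 1 and 3) and within TTFM (vertical axis, TTFM 1 and 2 over TTFM 3). Replication genes (red) lie mostly to the upper right, fibrillar collagens (orange) extend along the saline axis, stress genes (purple) lie mostly left of 0, and inflammatory genes (green) lie on both sides of either axis.

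Over all 627 genes, 405 (64.6%) had the same direction within TTFM as within saline. Both ratios of a gene come from different tumours, and the plot of 1 against the other shows where the gene groups part. The median log2 ratio was -0.03 within TTFM and -0.07 within saline over all genes, against 0.69 and 0.57 for the replication genes, -0.09 and 2.65 for the fibrillar collagens and -0.04 and -0.96 for the stress and heat shock genes.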

How the data were processed

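The data are 1 table of 750 genes by 6 samples, which the authors deposited and whose values were read as counts per gene. This reading rests on the values: whole numbers, column totals that differ, and a lowest count of 1 in every sample with no 0, so zeros may have been raised before deposit. The platform, counting steps, normalization and genome build behind the deposited counts were not given in the sources used here. All 750 gene names were matched in a RefSeq gene table of GRCm38.p6 (740 as current symbols, 10 as 1 synonym), and 470 of the 627 tested genes have a promoter entry there.

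Counts were scaled with TMM in edgeR 4.0.16 (R 4.3.3) after a minimum mean count of 10. Between the sets, chosen from Col3a1 in these samples, only log2 ratios of means, overlap and list medians were computed. TTFM and saline tumours (3 each) were compared with edgeR's quasi-likelihood test and Benjamini-Hochberg adjustment, with DESeq2 1.42.0 and limma 3.58.1 as alternatives, and the edgeR steps were tested on simulated data. The edgeR biological coefficient of variation was 33.4% and the median SE of a TTFM over saline log2 ratio 0.32. No pair of samples differed by as little as sampling noise.

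The sets and the gene lists were chosen with earlier results of these data known. Named genes are the 12 highest and 12 lowest non-collagen genes without overlap at a mean count of at least 50, the 4 genes Col3a1, Tnc, Mmp9 and Top2a, and up to 4 members of each list with the largest ratio. Col1a2, Col4a6, Col11a1, Col11a2, Fn1, Tnr, Pdgfra, Itga6, Itgb7, Itgb8, Ccnb1, Erbb2, Igf1r, Fgfr2, Bmp2, Bmp4, Fst, Il1b and Tnf were named after their values were seen. Results for some genes that the rule selects are not reported here. Alternatives were other scalings, count filters, a floor of 20, single treatments, other rankings and each tumour left out.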

Additional observations from a re-analysis of the deposited data

How the results depend on the processing

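Of the 32 higher and 39 lower genes at least 2-fold apart without overlap, column totals gave 21 and 59 (21 and 39 of them shared), housekeeping scaling, which rests on only 2 genes (Ercc3 and Pias1), 19 and 35 (19 and 29 shared), no count filter 34 and 56, a mean count of at least 50 24 and 23, and a floor of 20 counts 30 and 25. Leaving out each tumour gave 35 to 54 higher and 37 to 56 lower genes, and the saline tumours alone gave 77 and 56 and the TTFM tumours alone 47 and 46. The median log2 ratio of the fibrillar collagens was 0.62 to 2.09 with each tumour left out (2.09 without TTFM 3), 2.65 in saline and -0.092 in TTFM tumours alone. That of the matrix glycoproteins was -0.11 with no filter, 0.28 at a mean count of at least 50, 0.090 with the floor and -0.20 in TTFM tumours alone. That of the replication genes was 0.57 with column totals, 0.58 with housekeeping scaling, 0.66 with no filter, 0.70 to 0.81 with each tumour left out, 0.57 in saline and 0.69 in TTFM tumours alone. That of the inflammatory genes was -0.96 at a mean count of at least 50. Ranked by summed fibrillar collagens 2 of the 3 Col3a1-high tumours stayed on top, and by matrix glycoproteins 1. Over all alternatives, 145 log2 ratios of single named genes moved by more than the spread within the sets and 1297 did not. For TTFM against saline, housekeeping scaling called 31 genes, all lower in TTFM, DESeq2 1 and leaving out each tumour 0 to 14 (14 without saline 2). Pias1, 1 of the 2 genes behind the housekeeping scaling, was itself higher in TTFM tumours with TMM, at a log2 ratio of 1.29. Against TMM, the scaling factors from the 2 genes were larger in all 3 TTFM tumours and smaller in all 3 saline tumours. Housekeeping scaling thus gives lower TTFM values than TMM does, and which scaling is nearer the truth was not tested. With only 2 genes behind the scaling, these 31 calls are not read as treatment genes. With the replicate number as a block 0 genes were called, with 41 at an unadjusted p under 0.05. No label says that the replicate numbers pair samples, so they were not treated as pairs. Deviations from the treatment means had correlations of -0.23, 0.44 and 0.26 between tumours with the same number. Between tumours with different numbers they were -0.42 to 0.39. Such values cannot decide whether the numbers pair tumours, since the deviations within each group of 3 sum to 0. With the Col3a1 set as a term, which was chosen from the same values, 0 genes were called. Part of these shifts follows from the rules: filters test fewer or more genes, and fewer tumours make a lack of overlap easier to meet. Within a single treatment, the lack of overlap removed no gene that was at least 2-fold apart. Counts with fewer tumours are thus not comparable with the 32 and 39 genes. Any other cause of the shifts was not tested. With 3 tumours a set, and low counts for many genes, small ratios are imprecise.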

Other observations

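Signalling lists outside the matrix and the cell cycle held further genes that were lower in Col3a1-high tumours. Over all 627 genes, 19.5% were higher and 20.4% lower without overlap. Of 21 NF-kB and TLR genes 2 were higher (9.5%) and 5 lower (23.8%, near the share over all genes), with a median log2 ratio of -0.22. Tlr2, the receptor of bacterial lipoproteins, had 40.3, 52.1 and 54.6 in Col3a1-high tumours, against 63.3, 100.2 and 122 in Col3a1-low tumours. Of 15 tested JAK-STAT genes 2 were higher and 5 lower, and Socs2, an inhibitor of growth hormone signalling, was among the higher ones with 114, 118 and 146 against 77.7, 47.2 and 62.7, which is opposite to Ghr and Socs3. Of 7 tested interferon genes 0 were higher and 3 lower, with a median of -0.43. Ifnar1, a chain of the type I interferon receptor, had 665, 709 and 687 against 916, 1075 and 793.

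Among 9 DUSP and Sprouty feedback genes 1 was higher and 3 lower without overlap. Spry1, a Sprouty inhibitor of growth factor signalling, had 461, 566 and 365 in Col3a1-high tumours, against 853, 851 and 842 in Col3a1-low tumours, while Spry4, its relative, had 179, 197 and 187 against 128, 117 and 100.5. Of 18 apoptosis genes 4 were higher and 3 lower, with a median of -0.01 that was 0.01 with DESeq2 size factors. Bcl2l1, which encodes the survival protein BCL-XL, had 441, 449 and 406 against 488, 888 and 1001, and TTFM 3 was nearest to the Col3a1-high tumours. No adipocyte marker passed the count minimum, so fat pad tissue could not be compared between the sets.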
